A study of Mus musculus with 14 samples.

Results

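The comparison described here is caloric restriction (CR) against ad libitum feeding (AL) in bone marrow of mice whose marrow adipocytes lack *Pnpla2*. It was made over every sample that the labels place in these groups, 3 BMAd-Pnpla2-/- CR and 3 BMAd-Pnpla2-/- AL samples, which are 6 of the 14 samples of the study. The other 8 samples were 4 BMAd-Pnpla2+/+ AL and 4 BMAd-Pnpla2+/+ CR samples. Their values are given below where the response of the knockout is set beside that of its control genotype. They also entered the model behind every test, through the gene filter, the scaling and the estimate of spread. All mice were male, of a mixed C57BL6/SJL background and 24 weeks old. CR mice were single-housed and received food reduced by 30% for 6 weeks, given once a day shortly before the dark phase, whereas AL mice had food at all times. Each sample held marrow plugs flushed from the distal tibiae of 2 mice, so 1 sample is a pool and not an animal. Nothing in the labels says more about how replicates were separated. The p-values therefore measure the spread between pools, estimated for each gene over all 4 groups and not from the 6 pools alone.

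The deletion rests on a Cre that needs 2 loci at once. A FLPo recombinase made from the *Osterix* (*Sp7*) locus turns on a Cre cassette placed in the *Adipoq* locus, and that Cre removes the floxed part of *Pnpla2*. Mice of both genotypes and both diets carried the FLPo and Cre alleles, and only the -/- mice carried floxed *Pnpla2*. The cassette sits in the *Adipoq* gene itself, which limits what *Adipoq* mRNA can show in any of these groups. The deletion is limited to cells in which both loci have been active, and as the study describes them these include some stromal or dendritic cells beside the marrow adipocytes.

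*Pnpla2* encodes adipose triglyceride lipase, which takes the first fatty acid from stored triglyceride. Marrow adipocytes share the medullary space with blood-forming cells, stromal cells and bone cells, and marrow fat expands in restricted rodents while fat at most other sites is lost. Restriction also raises circulating glucocorticoids, which act on lymphoid precursors and on adipocytes, and a daily meal at a fixed time can shift peripheral clocks.

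Read depth was even across the 6 libraries. They held 25282327 to 25403853 read pairs, of which 18898324 to 19453055 were counted on genes without regard to strand. One property of the libraries divided the groups. In the 3 AL libraries 4.44 to 4.62% of strand-assigned gene reads lay on the first strand, as in a stranded library, and in the 3 CR libraries 50.1 to 50.5% did, as in a library without strand. All 8 libraries of the control genotype were stranded, at 4.30 to 4.61%. Unstranded counts were therefore used for every sample, but library type and diet cannot be told apart within the -/- genotype. Reads on no annotated gene made up 6.60 to 6.98% of pairs in AL and 7.77 to 9.601% in CR. Across 17649 genes the log2 fold change had a Pearson correlation of -0.217 with exonic GC content, against 0.0472 for the same diet contrast in the control genotype. Genes are not independent replicates, and the part of GC content in any gene's change was tested only by the offset described in the closing section. Replicates differed beyond sampling noise, with Pearson correlations of log2 CPM, the read count scaled to library size, of 0.979 to 0.986 within groups. On the first principal component, which held 68.8% of the variance, AL replicate 2 lay nearest to the CR samples and CR replicate 3 farthest from AL.

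*Pnpla2* itself (chr7:141455198-141460743 in GRCm38, the build of all gene positions here) was detected in all libraries, at 135, 170.1 and 131 CPM in the AL samples and 177, 219 and 267 CPM in the CR samples. Every CR value was above every AL value, but the difference did not pass the threshold (log2 fold change 0.60, SE 0.26, adjusted p = 0.143). In the control genotype *Pnpla2* was at 216 ± 57.6 CPM under AL and 828 ± 237 CPM under CR (SD, n = 4), a log2 fold change of 1.94 that was called. The difference between these responses was -1.34 (SE 0.35, unadjusted p = 0.00183), with an adjusted p of 0.341 over all genes. Counts are per gene and do not separate the floxed exons from the rest, so they check the labels only in this limited way. Transcripts that define marrow were abundant in all 6 libraries. The 20 erythroid genes summed to 33505 to 56478 CPM and the 15 granule genes of early neutrophils to 16979 to 28673 CPM. Of 15 skeletal muscle genes 5, the defining *Ckm* among them, were too low to be tested, and the other 10 summed to 20.1 to 22.2 CPM in AL and to 18.7 to 164 CPM in CR.

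Of 17671 genes tested, 624 were called different between CR and AL marrow of the -/- genotype, which is 3.53%. A call here means an adjusted p under 0.05 in edgeR's quasi-likelihood test, with Benjamini-Hochberg adjustment over all genes tested, and a log2 fold change beyond 1 in either direction. Higher calls in CR numbered 463 (2.62% of genes tested) and lower calls 161 (0.911%). These percentages are the background against which each gene list below is to be read. Where groups are said not to overlap, that describes the 3 AL and the 3 CR values and is no test. How many of all genes tested showed no overlap was not counted, so a lack of overlap lends no weight to a gene that was not called. Over all genes the median was 0.05 on the log2 scale, with quartiles of -0.22 and 0.37. Protein-coding genes made up 82.1% of the higher and 79.5% of the lower calls, near their 81.6% share of all genes tested. The number of calls depended on single pools: it was 122 without CR replicate 3, 167 without AL replicate 1, 184 without AL replicate 3 and 305 without CR replicate 2, and it lay between 601 and 766 without either of the other two.

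The lists of marrow cell types and pathways spread widely around that background. The lists with the highest medians were skeletal muscle, adipocyte identity and glucocorticoid targets, at 1.88, 1.67 and 1.38. At the other end lay the pro-B and pre-B cell list, the list of eosinophils, basophils and mast cells and the interferon-stimulated list, at -1.56, -0.999 and -0.85. Because this is bulk tissue, fewer cells of a type and less RNA per cell cannot be told apart in any of them.

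**Figure D1:**
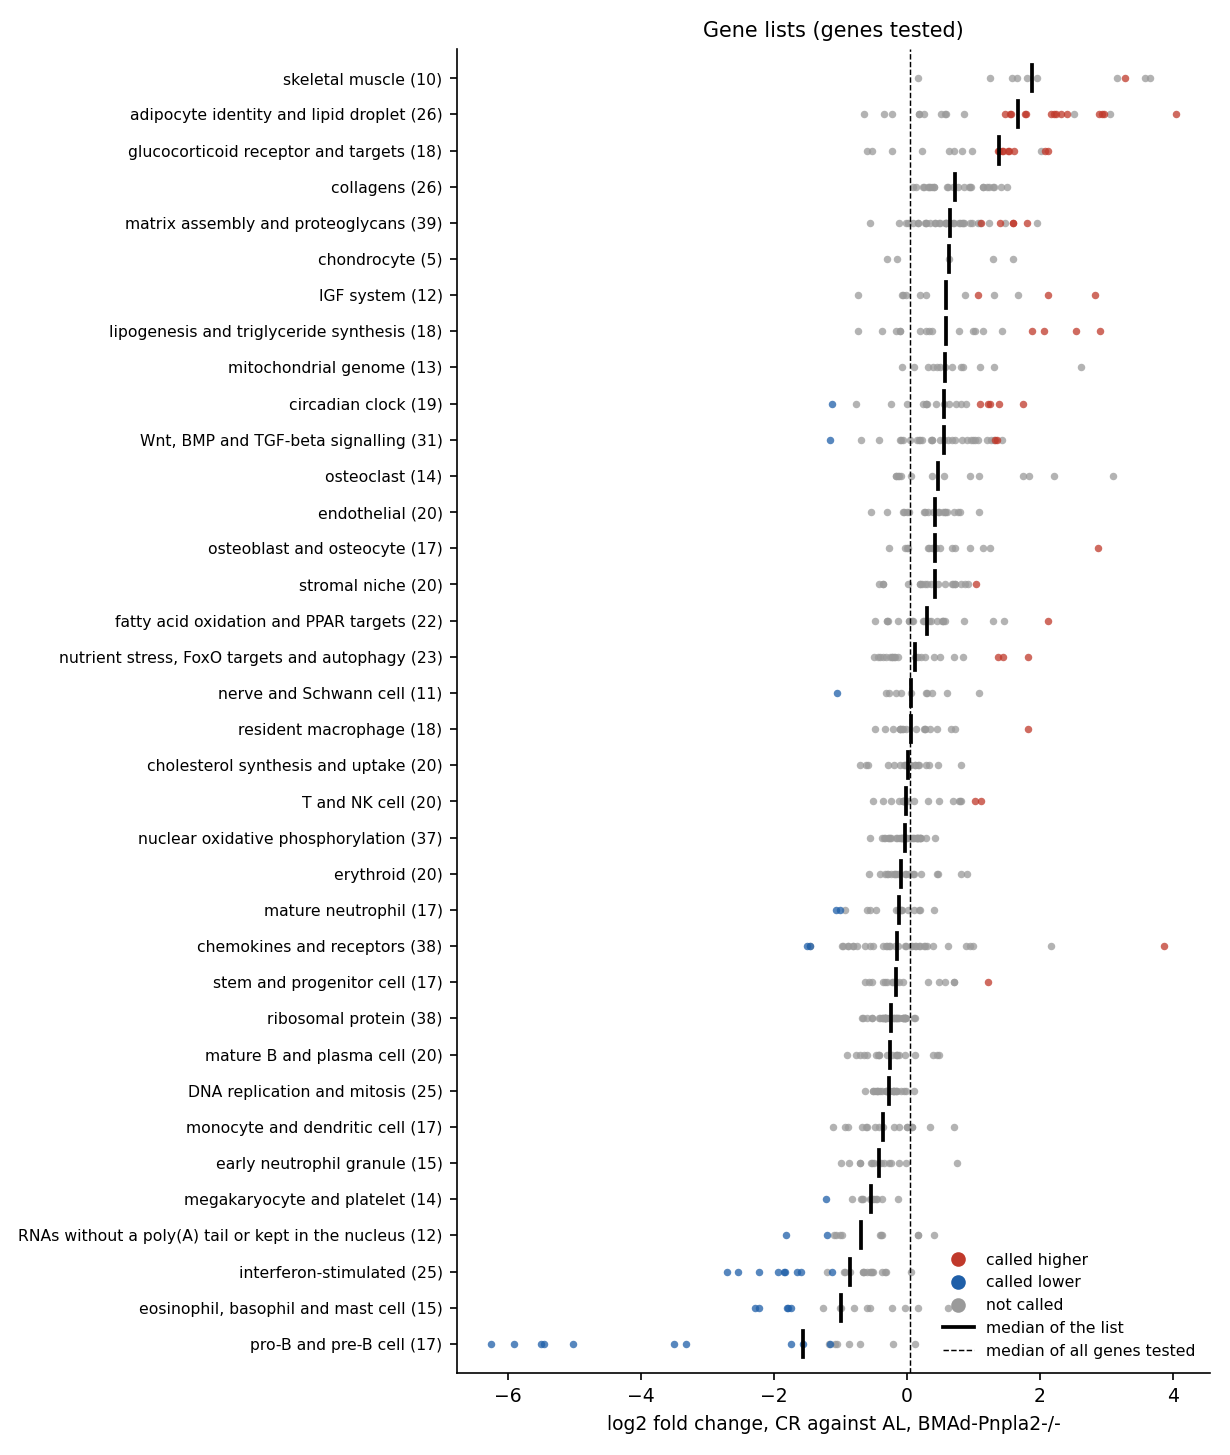
Log2 fold change of CR against AL in BMAd-Pnpla2-/- marrow for each tested gene of 36 lists, with the number of genes tested in parentheses. Points are genes, red called higher, blue called lower and grey not called. Black bars are list medians and the dashed line is the median of all 17671 genes (0.05). The pro-B and pre-B list lies farthest left (median -1.56), and the adipocyte list has 14 red points of 26. The leftmost point is *Vpreb2*, whose CR counts are at or near 0 so that its fitted value is no measured size.

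Genes of B-cell precursors had the lowest median of the 36 lists. In the bone marrow a pro-B cell rearranges its immunoglobulin heavy chain with the recombinases Rag1 and Rag2 and the template-free polymerase Dntt, and then displays the chain with a surrogate light chain built from Igll1 and the VpreB proteins. Of 17 tested genes of this list, 10 were called lower and none higher, against 0.911% lower calls among all genes, and the list's median log2 fold change was -1.56.

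*Rag1* (chr2:101638282-101649501), a recombinase subunit, was at 52.5, 41.8 and 41.04 CPM in the AL samples and 0.896, 1.21 and 0.147 CPM in the CR samples (log2 fold change -5.91, SE 0.67, adjusted p = 0.0018). *Igll1* (chr16:16860671-16863985), the lambda5 part of the surrogate light chain, was at 49.6, 41.4 and 39.03 CPM in the AL samples and 1.63, 0.999 and 0.245 CPM in the CR samples (log2 fold change -5.50, SE 0.50, adjusted p = 0.000279). *Vpreb1* (chr16:16868403-16870843), its partner, was at 26.7, 21.4 and 18.6 CPM in the AL samples and 0.475, 0.684 and 0.343 CPM in the CR samples (log2 fold change -5.46, SE 0.44, adjusted p = 0.000148). The groups were far apart for all 3 genes, with every CR value under 2 CPM and every AL value above 18. CR replicate 3 was the lowest of its group for each of them. *Rag2*, the second recombinase subunit, was at 6.09, 4.95 and 4.601 CPM in the AL samples and 0.264, 0.105 and 0.0981 CPM in the CR samples (log2 fold change -5.02, SE 0.59, adjusted p = 0.0018), the CR values resting on 5, 2 and 2 counts. *Vpreb2*, a near copy of *Vpreb1*, had 67, 74 and 32 counts in AL and 0, 2 and 0 counts in CR, where pairs that fit both genes equally well are counted on neither. A count of 0 allows up to 3 counts, so no fold change is given for it. The list's median is the value of *Bach2* and does not turn on that gene.

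A pair of further genes of the stage fell less steeply. *Vpreb3*, an endoplasmic reticulum protein of B-cell precursors, was at 63.9, 58.5 and 48.4 CPM in the AL samples and 2.48, 6.99 and 5.64 CPM in the CR samples (log2 fold change -3.50, SE 0.52, adjusted p = 0.00596). *Dntt*, which adds untemplated bases at the joints, was at 45.2, 36.2 and 39.7 CPM in the AL samples and 4.27, 5.05 and 2.79 CPM in the CR samples (log2 fold change -3.32, SE 0.29, adjusted p = 0.000159). Again no CR value reached the AL range in either gene. *Cecr2*, *Bach2* and *Blnk*, a chromatin remodelling factor, a repressor that acts in B cells and an adaptor of the B-cell receptor, were also called lower, at log2 fold changes of -1.74, -1.56 and -1.16.

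*Pax5* and *Cd79a*, which stay on as B cells mature, did not pass the test. *Pax5*, the lineage's identity factor, was at 199, 222 and 169.6 CPM in the AL samples and 46.8, 85.3 and 147 CPM in the CR samples (log2 fold change -1.08, adjusted p = 0.141). *Cd79a*, a signalling chain of the B-cell receptor, was at 257, 281 and 206 CPM in the AL samples and 70.97, 113 and 147 CPM in the CR samples (log2 fold change -1.17, adjusted p = 0.0912). Here too the AL and CR values did not overlap, but the CR samples were spread widely, with replicate 1 lowest and replicate 3 highest. *Il7r*, the receptor for the cytokine on which these cells depend, overlapped between the groups, at 46.1, 50.1 and 47.5 CPM in the AL samples and 47.2, 51.9 and 57.4 CPM in the CR samples (log2 fold change 0.12, adjusted p = 0.771), and so did *Ebf1* (log2 fold change -0.22, adjusted p = 0.71), an early factor of the lineage. None of 20 genes of mature B and plasma cells was called, and their median was -0.26. *Ighm*, the mu heavy chain, was at 2210.3, 2411 and 1846 CPM under AL against 837, 926 and 2042 CPM under CR and *Cr2*, a receptor of mature B cells, at 13.9, 18.4 and 15.5 CPM under AL against 11.8, 20.4 and 32.995 CPM under CR, so that CR replicate 3 lay among the AL values for the first and above them for the second. *Jchain*, the joining chain of plasma cells, had a log2 fold change of 0.12. With any 1 of the 6 pools left out, 7 to 10 pro-B and pre-B genes were called lower. The calls that changed were those of *Cecr2*, lost without AL replicate 1, CR replicate 2 or CR replicate 3, of *Blnk*, lost without AL replicate 1, AL replicate 3, CR replicate 1 or CR replicate 2, and of *Bach2*, lost without any pool but AL replicate 2.

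Interferon-stimulated genes were lower as well. These genes are switched on when type I interferon binds its receptor, and the list includes antiviral enzymes of the Oas family, the ubiquitin-like modifier Isg15 and the factor Irf7. Of 25 genes 9 were called lower and none higher, 24 of 25 had a negative log2 fold change and the median was -0.85.

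**Figure D2:**
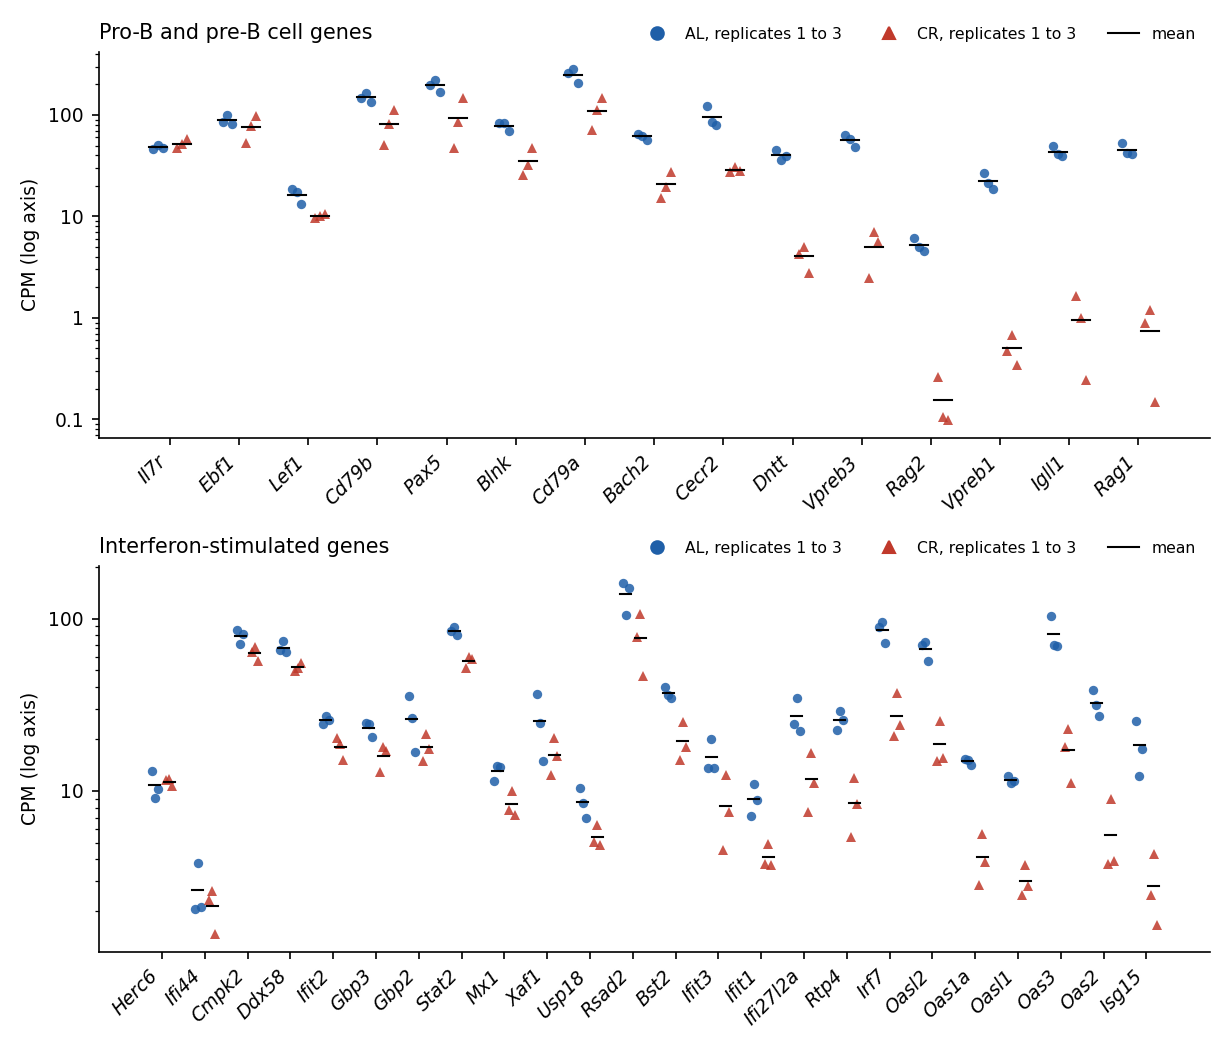
CPM on a log axis for pro-B and pre-B cell genes (top) and interferon-stimulated genes (bottom) in the 3 AL (blue circles) and 3 CR (red triangles) samples of BMAd-Pnpla2-/- marrow, with black bars at group means and genes ordered by fold change. *Rag1*, *Igll1*, *Vpreb1* and *Rag2* fall from 4.601 CPM or more to 1.63 CPM or less, while *Il7r* and *Ebf1* overlap. *Vpreb2* is left out because 2 of its values are 0, and not every other list member is drawn.

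*Isg15* was at 25.5, 12.2 and 17.5 CPM in the AL samples and 2.48, 4.31 and 1.67 CPM in the CR samples (log2 fold change -2.71, SE 0.55, adjusted p = 0.0125). *Oas2*, which makes the 2-5A second messenger on sensing double-stranded RNA, was at 38.3, 31.3 and 27.3 CPM in the AL samples and 3.74, 8.99 and 3.92 CPM in the CR samples (log2 fold change -2.54, SE 0.44, adjusted p = 0.00951). *Oas3*, of the same family, was at 103, 70.6 and 69.3 CPM in the AL samples and 17.98, 22.8 and 11.1 CPM in the CR samples (log2 fold change -2.23, SE 0.39, adjusted p = 0.00951). In each of the 3 genes every CR value was below every AL value, and AL replicate 1 was the highest sample. *Oas1a*, whose pairs are counted on no gene where they fit a near copy in its cluster equally well, was at 15.3, 15.1 and 14.2 CPM in the AL samples and 2.85, 5.63 and 3.87 CPM in the CR samples (log2 fold change -1.85, adjusted p = 0.00951). *Irf7*, the factor that amplifies the interferon response, was at 89.8, 96.02 and 72.03 CPM in the AL samples and 20.9, 36.9 and 24.1 CPM in the CR samples (log2 fold change -1.65, adjusted p = 0.0109). *Oasl1*, *Oasl2*, *Rtp4* and *Ifit1* were the other called members, at -1.94, -1.84, -1.60 and -1.12.

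*Stat2*, a signalling factor of the pathway, was not called. It was at 85.2, 89.9 and 80.8 CPM in the AL samples and 51.4, 59.6 and 58.4 CPM in the CR samples, and its log2 fold change of -0.59 passed the adjusted p (0.0119) but not the fold limit. *Herc6* (log2 fold change 0.07, adjusted p = 0.845) was the list's single member with a positive value, and *Cmpk2*, a mitochondrial kinase, was at -0.34. The plasmacytoid dendritic cell gene *Siglech*, a lectin of the cell type that makes much of the type I interferon, was at 27.3, 25.2 and 32.3 CPM in the AL samples and 16.5, 13.4 and 9.41 CPM in the CR samples (log2 fold change -1.11, adjusted p = 0.0511), just outside the threshold, and its part in these values was not tested. Without CR replicate 3 the number called lower was 5, with the calls of *Isg15*, *Irf7*, *Rtp4* and *Ifit1* lost, and without any other pool it was 9 or 10.

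The promoters of the list are shown because 24 of its 25 members had the same sign. Of the 25 genes, 19 had RefSeq promoter sequences (250 bases before to 50 after the start, GRCm38.p6), 21 promoters in all. The letters GAAA, any 2 bases and GAAA again, read on both strands, are the core of the interferon-stimulated response element. They occurred in 11 of these 21 promoters (52.4%) and in 1131 of all 32851 (3.44%). This motif was added to the search after the data had been seen. The list was chosen for genes that interferon induces, so a high share can come with that choice. It says nothing about these samples. The windows of 4 of the called genes are printed in the direction of transcription, with the matches in capitals and overlapping matches joined, for *Isg15* at chr4:156200840-156200931 (minus strand), *Ifit1* at chr19:34640750-34640848 (plus strand), *Oas1a* at chr5:120907526-120907580 (minus strand) and *Oas3* at chr5:120777690-120777769 (minus strand). TTTC reads GAAA on the other strand.
Isg15: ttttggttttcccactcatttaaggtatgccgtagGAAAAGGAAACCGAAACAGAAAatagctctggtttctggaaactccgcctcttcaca
Ifit1: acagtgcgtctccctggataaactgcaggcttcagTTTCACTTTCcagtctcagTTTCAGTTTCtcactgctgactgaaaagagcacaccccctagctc
Oas1a: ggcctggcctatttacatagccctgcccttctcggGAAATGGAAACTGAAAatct
Oas3: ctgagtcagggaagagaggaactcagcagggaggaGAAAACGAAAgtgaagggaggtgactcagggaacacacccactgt
The *Isg15* window holds 3 overlapping matches, which lie 78 to 57 bases before the start, and in *Oas1a* 2 overlapping matches lie 20 to 5 bases before it. The genes with a match also included *Bst2*, *Ddx58*, *Gbp2*, *Gbp3*, *Ifit3*, *Rsad2* and *Stat2*, which were not called here, so 4 of the 11 genes with a match were called. For the pro-B list, the letters TCCC, any 2 bases and GGGA, which the factor Ebf1 binds, were in none of the 18 promoters of its 14 matched genes and in 0.904% of all promoters. That says only that these letters are not in these windows.

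The adipocyte list held more higher calls than any other list. The distal tibia is a site where adipocytes fill much of the marrow space. The genes of the list encode the coat of the lipid droplet, the lipases and uptake proteins that act on it, and the hormones that adipocytes release. Of 26 tested members 14 were called higher and none lower, against 2.62% higher calls among all genes, and the median log2 fold change was 1.67. The summed level of the list was 1599 to 2668 CPM in AL and 3991 to 6403 CPM in CR.

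Among the hormones, *Lep* (chr6:29060220-29073877), which encodes leptin, was at 0.870, 1.90 and 0.740 CPM in the AL samples and 11.4, 18.8 and 27.7 CPM in the CR samples (log2 fold change 4.04, SE 0.64, adjusted p = 0.00737). *Retn*, which encodes resistin, was at 1.79, 3.47 and 1.96 CPM in the AL samples and 10.6, 18.99 and 25.6 CPM in the CR samples (log2 fold change 2.93, SE 0.45, adjusted p = 0.00688), with 10.3% of its strand-assigned AL reads on the first strand. *Adipoq*, which encodes adiponectin and carries the Cre cassette in all groups, was at 8.43, 16.4 and 7.51 CPM in the AL samples and 79.6, 32.6 and 48.98 CPM in the CR samples (log2 fold change 2.31, SE 0.61, adjusted p = 0.0306). The AL and CR values did not overlap for any of the 3, and in each the highest AL value was that of replicate 2. *Cfd*, the serine protease adipsin, was at 78.6, 213 and 90.7 CPM in the AL samples and 438, 652 and 708 CPM in the CR samples (log2 fold change 2.23, adjusted p = 0.0194).

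Of the droplet proteins, *Plin1*, the perilipin that gates lipase access, was at 27.7, 70.01 and 26.2 CPM in the AL samples and 121, 219 and 218 CPM in the CR samples (log2 fold change 2.17, SE 0.53, adjusted p = 0.023). *Cidec*, which drives droplet fusion, was at 10.2, 28.01 and 10.4 CPM in the AL samples and 49.99, 75.4 and 99.7 CPM in the CR samples (log2 fold change 2.21, adjusted p = 0.0233). *Plin4*, another perilipin, was at 23.1, 73.4 and 33.4 CPM in the AL samples and 111, 156 and 179.6 CPM in the CR samples (log2 fold change 1.78, adjusted p = 0.0458). AL replicate 2 was more than 2 times as high as the other AL samples in these genes, yet still below the lowest CR sample. The broadly expressed perilipin *Plin2* was not called, at 104, 144 and 110.2 CPM in the AL samples and 99.7, 97.3 and 108 CPM in the CR samples (log2 fold change -0.23, adjusted p = 0.342), and neither was *Plin5* (log2 fold change -0.34, adjusted p = 0.564).

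Some lipolytic and uptake enzymes were called and others were not. *Lipe*, hormone-sensitive lipase, which acts on diglyceride after the step that Pnpla2 takes, was at 40.8, 61.4 and 39.03 CPM in the AL samples and 96.9, 145 and 177 CPM in the CR samples (log2 fold change 1.57, SE 0.38, adjusted p = 0.0221). The other partners of that cascade were not called: *Mgll*, monoglyceride lipase, had a log2 fold change of 0.18 (adjusted p = 0.502), *Abhd5*, the co-activator of adipose triglyceride lipase, 0.17 (0.328) and *G0s2*, its inhibitor, 0.25 (0.541). For uptake, *Lpl*, lipoprotein lipase, was at 202, 364 and 199.8 CPM in the AL samples and 593, 626 and 902 CPM in the CR samples (log2 fold change 1.47, SE 0.36, adjusted p = 0.0235). *Fabp4*, the adipocyte fatty acid carrier, was at 129, 281 and 149.6 CPM in the AL samples and 386, 620.4 and 632 CPM in the CR samples (log2 fold change 1.55, SE 0.33, adjusted p = 0.0149). *Cd36*, a fatty acid transporter found on many cells, was not called, at 109, 231 and 116 CPM in the AL samples and 210.01, 283 and 329.8 CPM in the CR samples (log2 fold change 0.85, adjusted p = 0.0656), with AL replicate 2 above CR replicate 1. *Acsl1*, which activates fatty acids, had a log2 fold change of 0.58 (adjusted p = 0.0149). The identity factors *Pparg* and *Cebpa* had log2 fold changes of 0.57 and 0.52 and adjusted p of 0.216 and 0.231.

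**Figure D3:**
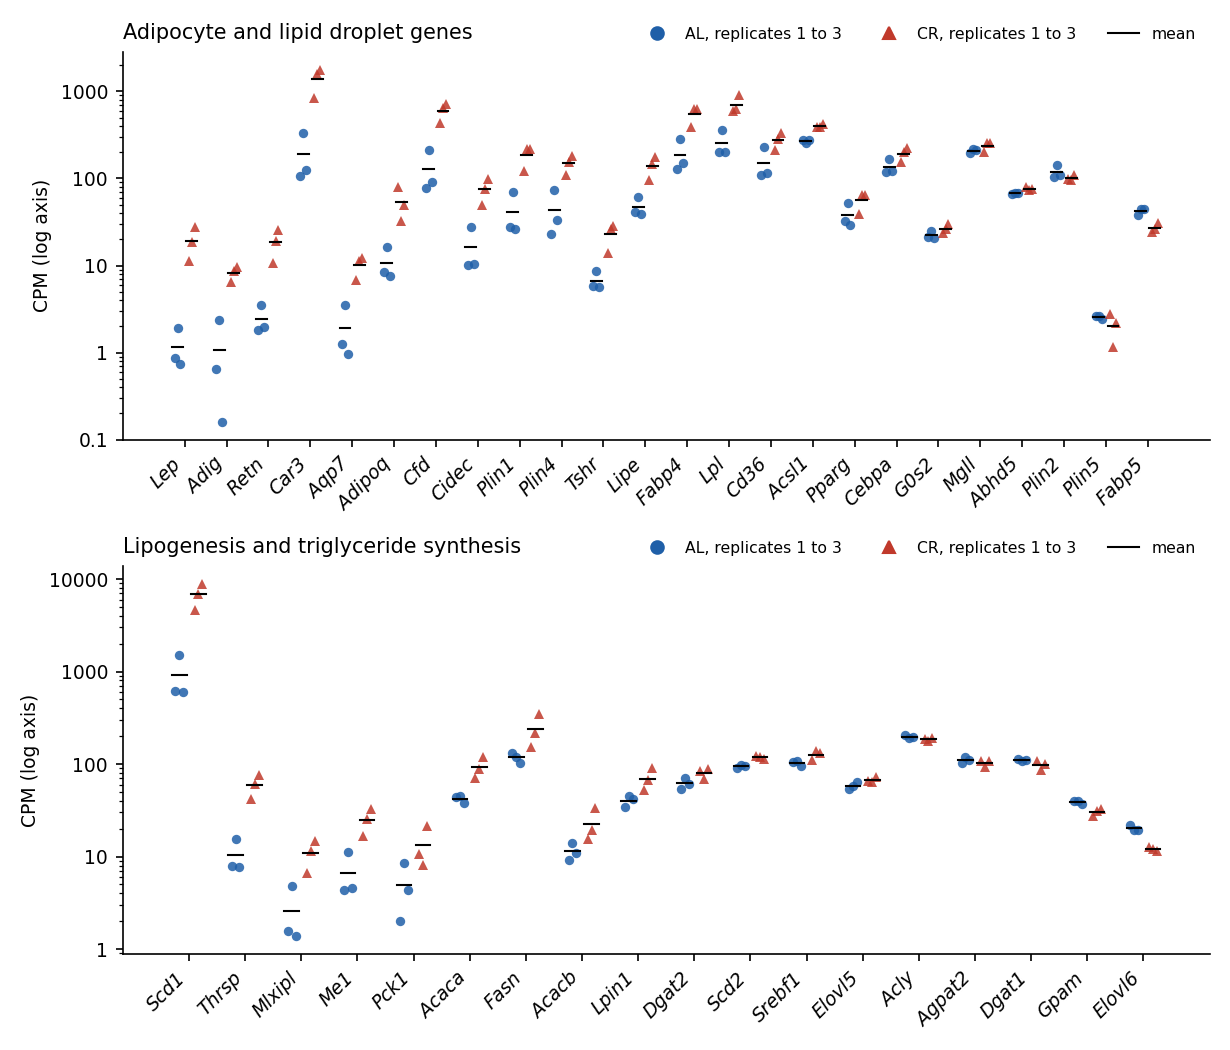
CPM on a log axis for adipocyte and lipid droplet genes (top) and for lipogenesis and triglyceride synthesis genes (bottom) in the AL (blue circles) and CR (red triangles) samples of BMAd-Pnpla2-/- marrow, with black bars at means and genes ordered by fold change. *Lep*, *Retn* and *Scd1* are higher in every CR sample than in any AL sample, and AL replicate 2 is the highest AL sample in most genes of the left part. *Cidea* and *Adrb3* are left out because they hold values of 0.

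Lipid synthesis was higher at some steps. Of 18 genes 4 were called higher and none lower, with a median of 0.58. *Scd1*, the stearoyl-CoA desaturase, was at 613, 1526 and 595 CPM in the AL samples and 4577, 6946 and 8923 CPM in the CR samples (log2 fold change 2.90, SE 0.56, adjusted p = 0.0114). *Thrsp*, a regulator of lipogenesis, was at 7.83, 15.5 and 7.67 CPM in the AL samples and 42.2, 61.1 and 76.7 CPM in the CR samples (log2 fold change 2.54, SE 0.43, adjusted p = 0.00854). *Me1*, malic enzyme, which supplies NADPH, and *Mlxipl*, which encodes the glucose-sensing factor ChREBP, were also called, at 1.89 and 2.06. The enzymes that build fatty acids from acetyl-CoA were not called: *Acaca*, acetyl-CoA carboxylase, was at 43.8, 44.6 and 37.97 CPM in the AL samples and 70.4, 87.9 and 120.2 CPM in the CR samples (log2 fold change 1.14, adjusted p = 0.0543) and *Fasn*, fatty acid synthase, at 132, 118 and 103 CPM in the AL samples and 152, 217 and 348 CPM in the CR samples (log2 fold change 1.02, adjusted p = 0.19). In both genes all CR values were above all AL values, with CR replicate 1 lowest and replicate 3 highest. *Acly*, ATP citrate lyase, and *Dgat1* and *Agpat2*, which esterify fatty acids, had log2 fold changes of -0.10, -0.16 and -0.11.

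The adipocyte counts depended on which pools were in the fit. Without AL replicate 1, AL replicate 3 or CR replicate 3 the number of adipocyte genes called was 3, 2 or 3, without CR replicate 2 it was 7, and without AL replicate 2 or CR replicate 1 it was 15 or 13. With no filter on low counts it was 5. The list's median stayed between 1.39 and 1.94. *Lep* and *Retn* kept their calls in each of these fits. *Adipoq*, *Cfd*, *Plin1*, *Cidec*, *Plin4*, *Lipe*, *Lpl* and *Fabp4* each lost theirs without AL replicate 1, AL replicate 3 or CR replicate 3. For lipid synthesis the count was 1 without AL replicate 1 or AL replicate 3 and 2 without CR replicate 2 or CR replicate 3, and also 2 with no filter. *Scd1* lost its call without AL replicate 1 or AL replicate 3, and *Thrsp* kept it throughout.

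Where counts averaged 50 or more and the groups were apart, several of the called genes with the largest rises are known from fat cells or encode receptors and channels. *Bche* (chr3:73635808-73708415), butyrylcholinesterase, was at 0.381, 0.790 and 0.106 CPM in the AL samples and 8.65, 10.3 and 10.8 CPM in the CR samples (log2 fold change 4.52, SE 0.56, adjusted p = 0.00323), its AL values resting on 7, 15 and 2 counts. It had the largest log2 fold change of any called gene with a mean of at least 50 counts. *Acvr1c*, the activin receptor ALK7 of adipocytes, was at 1.36, 2.79 and 0.899 CPM in the AL samples and 9.12, 15.8 and 24.6 CPM in the CR samples (log2 fold change 3.29, SE 0.58, adjusted p = 0.00951). *Adora1*, the adenosine A1 receptor, was at 0.435, 0.895 and 0.159 CPM in the AL samples and 3.69, 5.31 and 6.96 CPM in the CR samples (log2 fold change 3.41, SE 0.63, adjusted p = 0.00964). The 3 AL values of each lay well below its 3 CR values. *Rbp4*, the retinol carrier, *Glb1l2*, a galactosidase-like protein, and the potassium channel genes *Kcnj15* and *Kcnt1* had log2 fold changes of 3.07, 3.18, 3.11 and 2.98. *Adig*, adipogenin, followed at 2.96, and both *Adig* and *Kcnj15* lost their call without AL replicate 1, AL replicate 3 or CR replicate 3. *Map7d2*, a microtubule-associated protein, was at 0.381, 0.579 and 0.423 CPM in the AL samples and 1.74, 5.94 and 6.96 CPM in the CR samples (log2 fold change 3.39, adjusted p = 0.00587), but 42.3% of its strand-assigned AL reads lay on the first strand, so reads of another transcript may be counted in it.

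Fatty acid oxidation genes gave few calls. Of 22 genes 1 was called higher and none lower, with a median of 0.30. The called gene was *Pdk4*, the kinase that shuts off pyruvate dehydrogenase in fasting, at 1.47, 4.53 and 1.64 CPM in the AL samples and 6.49, 12.7 and 14.2 CPM in the CR samples (log2 fold change 2.12, SE 0.52, adjusted p = 0.0233), and its call was lost without AL replicate 1, AL replicate 3, CR replicate 2 or CR replicate 3 (adjusted p up to 0.0958). *Cpt1a*, the gate of mitochondrial fatty acid entry, overlapped at 164, 186 and 180.1 CPM in the AL samples and 178, 166 and 195 CPM in the CR samples (log2 fold change 0.02, adjusted p = 0.913), and *Ucp2*, an uncoupling protein, was at -0.29. *Ppara* and *Ppargc1a*, a fasting receptor and its co-activator, were low in all samples, at 0.272, 0.368 and 0.317 CPM under AL against 0.685, 0.894 and 0.784 CPM under CR and 0.544, 0.526 and 0.740 CPM under AL against 1.37, 1.68 and 1.96 CPM under CR, and did not pass (adjusted p = 0.079 and 0.0604) although their groups did not overlap. No gene of cholesterol synthesis and uptake was called among 20, with a median of 0.02. *Srebf2*, the master factor of that pathway, had a log2 fold change of -0.28. The peroxisome proliferator response element, AGGTCA, any base and AGGTCA, was in none of the 27 promoters matched to the adipocyte list or the 17 matched to the oxidation list, and in 0.0396% of all promoters.

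In the insulin-like growth factor system 3 of 12 genes were called higher. *Igfbp3*, the main carrier of IGF1, was at 6.58, 8.79 and 6.61 CPM in the AL samples and 19.2, 50.9 and 85.4 CPM in the CR samples (log2 fold change 2.82, SE 0.52, adjusted p = 0.0098). *Ghr*, the growth hormone receptor, was at 32.4, 64.9 and 36.6 CPM in the AL samples and 126, 207 and 246 CPM in the CR samples (log2 fold change 2.11, SE 0.42, adjusted p = 0.0117). *Igfbp5*, a binding protein of the matrix, was at 698, 1097 and 820.2 CPM in the AL samples and 1275, 2099 and 2118 CPM in the CR samples (log2 fold change 1.07, SE 0.31, adjusted p = 0.0421). CR replicate 1 was the lowest CR sample in all 3, and for *Igfbp3* the CR samples ranged more than 4-fold. *Igf1* itself, at 52.4, 121 and 79.5 CPM under AL against 111, 166 and 187 CPM under CR, did not pass (log2 fold change 0.88, adjusted p = 0.0783), and the binding proteins *Igfbp4* and *Igfbp7* were at 0.29 and -0.06. The call count was 1 without AL replicate 1, AL replicate 3 or CR replicate 3, and that gene was *Igfbp3*, which kept its call throughout. Among 23 regulators of nutrient stress and autophagy 3 were called higher: *Klf15* (log2 fold change 1.82, adjusted p = 0.00951), a fasting factor, *Bnip3* (log2 fold change 1.44, adjusted p = 0.0168), a mitophagy receptor, and *Depp1* (log2 fold change 1.37, adjusted p = 0.0362), a FoxO target. The autophagy genes *Ulk1*, *Sqstm1* and *Map1lc3b* lay between -0.23 and -0.13, and the stress factor *Atf4* at -0.44. *Txnip*, an inhibitor of glucose uptake, was at 0.84 and the factor *Foxo3* at -0.25. *Bnip3* and *Depp1* lost their calls without AL replicate 1, AL replicate 3 or CR replicate 3, and *Depp1* also without CR replicate 2. For *Depp1* the groups overlapped, with AL replicate 2 at 27.6 CPM above CR replicate 1 at 24.9 CPM.

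Glucocorticoid targets were higher in CR. The hormone binds the receptor Nr3c1, which then enters the nucleus and switches on genes such as *Fkbp5*, whose product restrains the receptor in turn. Of 18 genes in the list 9 were called higher and none lower, and the median log2 fold change was 1.38. The receptor gene *Nr3c1* was not called, at 105, 121 and 128 CPM in the AL samples and 148, 123 and 142 CPM in the CR samples (log2 fold change 0.22, adjusted p = 0.144).

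*Fkbp5* (chr17:28399094-28517527) was at 72.4, 80.8 and 86.7 CPM in the AL samples and 165, 196 and 260.1 CPM in the CR samples (log2 fold change 1.37, SE 0.17, adjusted p = 0.00323). *Tsc22d3*, which encodes the leucine zipper protein GILZ, was at 77.98, 116 and 106 CPM in the AL samples and 211, 284 and 365 CPM in the CR samples (log2 fold change 1.52, SE 0.21, adjusted p = 0.00481). *Ddit4*, an inhibitor of mTOR complex 1 also called Redd1, was at 13.4, 19.4 and 19.4 CPM in the AL samples and 46.9, 71.9 and 101 CPM in the CR samples (log2 fold change 2.08, SE 0.28, adjusted p = 0.00481). Each of the 3 had its CR samples in the same order, replicate 1 lowest and replicate 3 highest, and all above the AL samples. *Zbtb16*, a zinc finger factor, was at 9.14, 15.5 and 12.9 CPM in the AL samples and 28.3, 27.7 and 59.1 CPM in the CR samples (log2 fold change 1.61, adjusted p = 0.0106), and *Klf9*, an early target of the receptor, at 27.7, 48.5 and 33.4 CPM in the AL samples and 69.8, 105 and 119 CPM in the CR samples (log2 fold change 1.42, adjusted p = 0.00951). *Per1*, a clock repressor, *Errfi1*, an inhibitor of the EGF receptor, *Sult1a1*, a sulfotransferase, and *Pdk4* were the other called members, at 1.38, 1.45, 1.54 and 2.12.

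The remaining members did not all point the same way. *Sgk1*, a kinase induced by the hormone, was at 46.4, 71.2 and 55.9 CPM in the AL samples and 94.96, 102 and 144 CPM in the CR samples and just under the fold limit (log2 fold change 0.97, adjusted p = 0.0289). *Cebpd* and *Lcn2*, which myeloid cells express strongly, had values of -0.60 and -0.53. *Mt2*, a metallothionein, was at 0.218, 0.158 and 0.212 CPM in the AL samples and 0.685, 1.16 and 0.588 CPM in the CR samples (log2 fold change 2.01, adjusted p = 0.0796), and its sign depended on which deposited counts were used. With any 1 of the 6 pools left out, 7 to 11 members of the list were called higher. *Errfi1* and *Pdk4* were among those lost without AL replicate 1, AL replicate 3 or CR replicate 3. The glucocorticoid response element AGAACA, any 3 bases and TGTTCT occurred in 1 of the 25 promoters of 15 matched genes, that of *Sgk1*, and in 3 of all 32851 promoters (0.00913%). Its window at chr10:21993666-21993750 (plus strand) is shown with the element in capitals, as a palindrome that few promoters hold.
Sgk1: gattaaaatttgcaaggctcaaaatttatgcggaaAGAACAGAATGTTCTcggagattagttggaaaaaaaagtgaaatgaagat

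**Figure D4:**
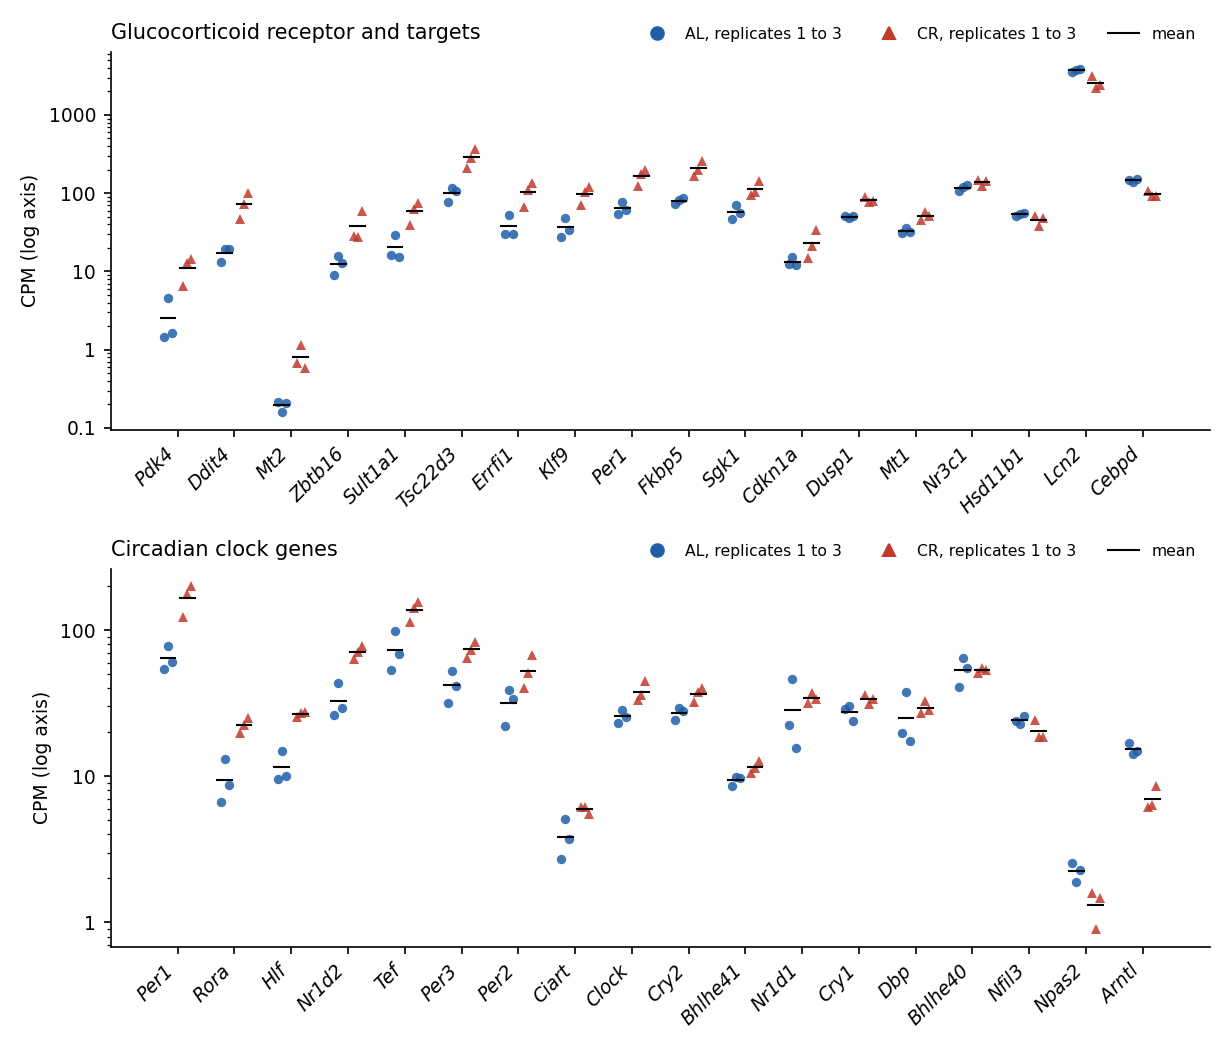
CPM on a log axis for glucocorticoid receptor and target genes (top) and circadian clock genes (bottom) in the AL (blue circles) and CR (red triangles) samples of BMAd-Pnpla2-/- marrow, with black bars at means and genes ordered by fold change. From *Ddit4* to *Fkbp5* in the top panel all CR samples lie above all AL samples. In the bottom panel *Per1* and *Hlf* are higher and *Arntl* is lower in CR, and *Dbp* and *Bhlhe40* overlap. Not every list member is drawn.

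The clock genes moved on both sides. In the clock, Arntl and Clock activate the *Per*, *Cry* and *Nr1d* genes through the E-box, whose products then repress them, so positive and negative arms peak at different times of day. Time of collection is not given in the sources used here, and its part in these values was not tested. Of 19 genes 5 were called higher and 1 lower, with a median of 0.56. The lower gene was *Arntl*, the activator also called Bmal1, at 16.8, 14.3 and 14.97 CPM in the AL samples and 6.17, 6.36 and 8.53 CPM in the CR samples (log2 fold change -1.13, SE 0.26, adjusted p = 0.018).

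On the repressing arm, *Per1* (chr11:69095217-69109960) was at 54.1, 77.2 and 60.6 CPM in the AL samples and 122, 177 and 200.1 CPM in the CR samples (log2 fold change 1.38, SE 0.21, adjusted p = 0.00568). *Nr1d2*, a repressor of *Arntl*, was at 26.2, 43.5 and 29.1 CPM in the AL samples and 63.5, 70.9 and 77.95 CPM in the CR samples (log2 fold change 1.10, SE 0.21, adjusted p = 0.0109), whereas its relative *Nr1d1* overlapped between the groups, at 22.5, 46.5 and 15.6 CPM in the AL samples and 31.8, 37.4 and 33.98 CPM in the CR samples (log2 fold change 0.29, adjusted p = 0.703), and 20.7% of its strand-assigned AL reads lay on the first strand. *Hlf*, an output factor, was at 9.63, 14.8 and 9.995 CPM in the AL samples and 25.3, 26.9 and 27.7 CPM in the CR samples (log2 fold change 1.21, SE 0.22, adjusted p = 0.00951), and its relatives *Tef* and *Dbp* had log2 fold changes of 0.89 and 0.23, not called. *Rora*, an activator of *Arntl*, was called at 1.24. *Hlf* and *Per1* kept their calls in each fit that left out a pool. Without AL replicate 1, AL replicate 3 or CR replicate 3 the list had 2 higher calls and no lower call.

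The E-box CACGTG was in 6 of 21 promoters of the 16 clock genes with a RefSeq promoter (28.6%), against 2349 of 32851 promoters (7.15%), and in 4 of 25 promoters of the glucocorticoid list (16%). The E-box is its own reverse complement, so both strands give the same matches. The list holds genes chosen for the clock, which acts through this element, so a high share can come with that choice. The windows of a called gene and of 2 genes that were not called are given, with the E-boxes in capitals, for *Per1* at chr11:69098748-69098823 (plus strand), *Tef* at chr15:81802511-81802586 (plus strand) and *Ciart* at chr3:95882232-95882379 (minus strand).
Per1: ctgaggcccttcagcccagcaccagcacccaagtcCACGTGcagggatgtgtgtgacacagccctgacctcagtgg
Tef: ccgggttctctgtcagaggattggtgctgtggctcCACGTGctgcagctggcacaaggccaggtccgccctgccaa
Ciart: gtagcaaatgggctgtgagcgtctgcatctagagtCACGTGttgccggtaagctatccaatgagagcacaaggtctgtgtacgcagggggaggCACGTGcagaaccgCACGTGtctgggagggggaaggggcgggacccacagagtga
The *Ciart* window holds 3 E-boxes, and *Ciart*, a repressor of the clock, was at 2.72, 5.11 and 3.70 CPM in the AL samples and 6.12, 6.15 and 5.54 CPM in the CR samples with no overlap between groups (log2 fold change 0.63, adjusted p = 0.0937). The D-box TTATGTAA, which Hlf, Tef and Dbp bind, was in 1 of the 21 promoters, that of *Per3*, and in 0.938% of all promoters. *Per3* was at 31.9, 52.8 and 41.6 CPM in the AL samples and 64.5, 73.4 and 83.4 CPM in the CR samples (log2 fold change 0.81, adjusted p = 0.043), past the adjusted p but under the fold limit.

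Among myeloid lineages the eosinophil genes stood out. Their granules hold major basic protein, a peroxidase and ribonucleases, and of 15 tested genes of eosinophils, basophils and mast cells 5 were called lower and none higher, with a median of -0.999. *Prg2*, the major basic protein, was at 218, 621 and 653 CPM in the AL samples and 117, 209 and 118 CPM in the CR samples (log2 fold change -1.75, SE 0.41, adjusted p = 0.02). *Epx*, eosinophil peroxidase, was at 92.4, 289 and 292 CPM in the AL samples and 41.2, 91.6 and 59.8 CPM in the CR samples (log2 fold change -1.81, SE 0.49, adjusted p = 0.0339). *Prg3*, a relative of *Prg2*, was at 8.86, 20.5 and 25.4 CPM in the AL samples and 3.69, 4.63 and 3.33 CPM in the CR samples (log2 fold change -2.23, SE 0.48, adjusted p = 0.0149). In all 3 genes AL replicate 1 was the lowest AL sample and lay closest to the CR samples. *Ear1* and *Ear6*, eosinophil ribonucleases whose pairs are not counted where they fit near copies equally well, were called at -1.80 and -2.29. The receptors of the lineage did not follow: *Ccr3* was at 13.3, 37.9 and 24.01 CPM in the AL samples and 24.3, 53.1 and 37.996 CPM in the CR samples (log2 fold change 0.62, adjusted p = 0.233) and *Il5ra* had a log2 fold change of 0.16. Mast cell and basophil genes such as *Cpa3* and *Mcpt8* had values of -0.56 and -1.27, and *Prss34*, a basophil protease, and *Ear2* were at -1.004 and -0.999, none of them called. No gene of the list was called without AL replicate 3 or without CR replicate 3, 2 were without CR replicate 1, and 7 were without AL replicate 1. With no filter on low counts 1 was called.

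Neutrophil genes mostly had negative values with few calls. None of 15 early granule genes was called, 14 had negative values and the median was -0.42, and *Ltf*, lactoferrin, was at 4515, 4108 and 4804 CPM in the AL samples and 3571, 2192 and 2498 CPM in the CR samples (log2 fold change -0.70, adjusted p = 0.0768). *Ngp*, neutrophilic granule protein, had a log2 fold change of -0.42. Of 17 genes of mature neutrophils 2 were called lower. *Csf3r*, the G-CSF receptor, was at 1032, 945 and 1092 CPM in the AL samples and 643, 407 and 413 CPM in the CR samples (log2 fold change -1.07, SE 0.21, adjusted p = 0.0114), and *Il1b*, interleukin 1 beta, at 51.9, 30.5 and 43.3 CPM in the AL samples and 31.7, 17.8 and 12.99 CPM in the CR samples (log2 fold change -1.01, SE 0.26, adjusted p = 0.0275). CR replicate 1 was nearest to AL in both, and for *Il1b* it lay above AL replicate 2, so the groups overlapped. Both calls were lost without CR replicate 2 or CR replicate 3, that of *Il1b* also without AL replicate 1 or AL replicate 3. With total counts alone both were lost too, that of *Csf3r* also with the GC offset. *Il1b* lost its call as well with the 6 samples alone, the filter at a mean of 50 counts or the length offset. The alarmin *S100a8* overlapped at 2832, 2634 and 2625 CPM in the AL samples and 3339, 2277 and 1992 CPM in the CR samples (log2 fold change -0.09, adjusted p = 0.857), and its partner *S100a9* was at -0.46.

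Platelet genes had negative values throughout. All 14 tested genes had negative values, with a median of -0.54, and 1 was called, *Treml1*, a receptor of platelet granules, at 93.9, 59.4 and 83.7 CPM in the AL samples and 42.2, 27.6 and 31.97 CPM in the CR samples (log2 fold change -1.22, SE 0.29, adjusted p = 0.0213), a call that was lost without AL replicate 1, AL replicate 3, CR replicate 2 or CR replicate 3 (adjusted p up to 0.0794). The platelet basic protein *Ppbp* and the integrin *Itgb3* were at -0.53 and -0.14. No erythroid gene among 20 and no monocyte or dendritic cell gene among 17 was called, with medians of -0.08 and -0.36. The globin genes *Hba-a1* and *Hbb-bs*, which have near copies, were at -0.57 and 0.81, and the monocyte genes *Lyz2* and *Ly6c2* at -0.48 and -0.36. In the resident macrophage list 1 of 18 was called, *Cd163*, the haemoglobin scavenger receptor, at 24.4, 55.6 and 35.6 CPM in the AL samples and 91.5, 119 and 198 CPM in the CR samples (log2 fold change 1.82, SE 0.37, adjusted p = 0.0133), with 33.8% of its strand-assigned AL reads on the first strand. The median of the list was 0.06, and *Adgre1* and *C1qa*, which define the type, were at -0.07 and 0.27. *Hmox1*, haem oxygenase, was at -0.10. The call for *Cd163* was lost without AL replicate 1, AL replicate 3 or CR replicate 3.

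Lymphocytes outside the B lineage gave 2 higher calls of 20. *Cd8a* and *Cd8b1*, the chains of the CD8 co-receptor, were called. *Cd8a* was at 10.7, 12.3 and 7.30 CPM in the AL samples and 19.7, 20.9 and 20.8 CPM in the CR samples (log2 fold change 1.02, SE 0.25, adjusted p = 0.0229) and *Cd8b1* at 7.83, 7.37 and 6.19 CPM in the AL samples and 14.4, 16.3 and 15.6 CPM in the CR samples (log2 fold change 1.11, SE 0.27, adjusted p = 0.0206). *Cd3e*, of the T-cell receptor complex, was at 5.33, 6.32 and 5.18 CPM in the AL samples and 9.12, 9.94 and 10.5 CPM in the CR samples and passed the adjusted p at a log2 fold change of 0.81. *Nkg7*, a gene of cytotoxic cells, lay at -0.50, *Cd4*, the helper co-receptor, at -0.04 and *Il2rb*, a chain of the interleukin 2 receptor, at -0.06. Both calls were lost without AL replicate 1, AL replicate 3, CR replicate 2 or CR replicate 3. That of *Cd8a* was also lost with DESeq2 size factors, DESeq2's Wald test, the 6 samples alone, the GC offset or no low-count filter. It was lost as well with genes under 10% first-strand reads, and without +/+ AL replicate 3 or +/+ CR replicate 1. Among 17 stem and progenitor genes *Hlf* was the single call, and *Flt3*, a receptor of early progenitors, was at 22.3, 18.7 and 19.8 CPM in the AL samples and 36.96, 29.03 and 33.5 CPM in the CR samples (log2 fold change 0.71, adjusted p = 0.00951). *Kit*, the receptor for stem cell factor, was at 0.57.

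Stromal and skeletal genes leaned upwards with few calls. All 26 tested collagen genes had positive log2 fold changes, from 0.09 to 1.51 with a median of 0.73, and none was called. *Col1a1*, the main chain of bone collagen, was at 263, 576 and 375 CPM in the AL samples and 1119, 661 and 897 CPM in the CR samples (log2 fold change 1.14, SE 0.69, adjusted p = 0.293), and its partner *Col1a2* at 354, 708 and 487 CPM in the AL samples and 1146, 865 and 986 CPM in the CR samples (log2 fold change 0.95, SE 0.46, adjusted p = 0.186). The CR samples exceeded the AL samples in both, but AL replicate 2 lay about 2-fold above AL replicate 1. With that pool left out 2 collagen genes were called.

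Of 39 matrix assembly and proteoglycan genes 5 were called higher. *Lox*, lysyl oxidase, which cross-links collagen, was at 31.9, 54.9 and 34.1 CPM in the AL samples and 107, 149.9 and 166 CPM in the CR samples (log2 fold change 1.81, SE 0.38, adjusted p = 0.0146). *Thbs2*, a matricellular thrombospondin, was at 11.04, 16.5 and 13.3 CPM in the AL samples and 30.5, 35.03 and 41.97 CPM in the CR samples (log2 fold change 1.40, SE 0.32, adjusted p = 0.0191). *Fmod* (fibromodulin), *Adamts12* (a metalloprotease) and *Plod2* (a collagen lysyl hydroxylase) were called at 1.59, 1.59 and 1.11, and *Mmp13*, collagenase 3, was at 19.8, 32.9 and 34.7 CPM in the AL samples and 116, 137 and 85.4 CPM in the CR samples but did not pass (log2 fold change 1.95, adjusted p = 0.0667). *Bgn* and *Fn1*, biglycan and fibronectin, were at 0.50 and 0.16. None of these calls remained without AL replicate 1, AL replicate 3 or CR replicate 3, and 9 genes were called without AL replicate 2.

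For osteoblasts and osteocytes 1 of 17 genes was called. *Dmp1*, a matrix protein of osteocytes, was at 0.870, 1.68 and 0.687 CPM in the AL samples and 6.80, 7.94 and 9.02 CPM in the CR samples (log2 fold change 2.87, SE 0.53, adjusted p = 0.00967), with 18% of its strand-assigned AL reads on the first strand. *Bglap*, osteocalcin, overlapped at 7.07, 18.8 and 7.72 CPM in the AL samples and 14.1, 10.4 and 8.97 CPM in the CR samples (log2 fold change -0.004, adjusted p = 0.998), and *Alpl*, alkaline phosphatase, overlapped at 33.01, 90.5 and 46.4 CPM in the AL samples and 66.8, 84.9 and 68.98 CPM in the CR samples (log2 fold change 0.38, adjusted p = 0.56). *Sp7*, whose locus drives the FLPo allele, was at 8.05, 18.5 and 13.4 CPM in the AL samples and 16.9, 19.9 and 16.8 CPM in the CR samples (log2 fold change 0.42, adjusted p = 0.455), and *Sparc*, osteonectin, at a log2 fold change of 0.44. Of 14 osteoclast genes none was called, yet the groups did not overlap for *Ctsk*, cathepsin K, at 16.2, 35.7 and 29.9 CPM in the AL samples and 143, 124 and 113 CPM in the CR samples (log2 fold change 2.21, SE 0.77, adjusted p = 0.0765), or for *Acp5*, the tartrate-resistant phosphatase, at 77.6, 73.2 and 81.1 CPM in the AL samples and 139.5, 155 and 151 CPM in the CR samples (log2 fold change 0.94, adjusted p = 0.241). *Mmp9*, a gelatinase that neutrophils also make, was at -0.12.

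Of 20 genes of the stromal niche 1 was called, *Kitl*, stem cell factor, at 61.6, 104 and 78.7 CPM in the AL samples and 140.3, 167 and 191 CPM in the CR samples (log2 fold change 1.03, SE 0.24, adjusted p = 0.0186). This call was lost without AL replicate 1, AL replicate 3, CR replicate 2 or CR replicate 3 and with size factors of another tool. It was also lost with DESeq2's Wald test, the 6 samples alone, the GC offset or no low-count filter, and without +/+ AL replicate 3 or +/+ CR replicate 1. *Vcam1*, an adhesion molecule of stroma and macrophages, was at 0.72. No endothelial gene among 20 was called, and *Stab2*, a scavenger receptor of sinusoids, and *Eng*, endoglin, were at 0.54 and -0.07. Of 31 Wnt, BMP and TGF-beta genes 2 were called higher, *Fst* (follistatin, an activin antagonist, log2 fold change 1.35, adjusted p = 0.0259) and *Wnt5a* (a non-canonical ligand, log2 fold change 1.33, adjusted p = 0.024), and 1 lower, *Sfrp4*, a secreted Wnt antagonist, at 66.9, 92.1 and 68.1 CPM in the AL samples and 29.1, 44.97 and 27.4 CPM in the CR samples (log2 fold change -1.16, SE 0.25, adjusted p = 0.0149). The ligand *Tgfb1* and the receptor *Tgfbr2* were not called (-0.68 and 0.23). The 2 higher calls were lost without AL replicate 1, AL replicate 3, CR replicate 2 or CR replicate 3, and *Sfrp4* without CR replicate 3. Among 38 chemokines and receptors *Cxcl13*, which draws B cells, was called higher at 0.109, 0.684 and 0.159 CPM in the AL samples and 1.32, 5.31 and 7.55 CPM in the CR samples (log2 fold change 3.87, adjusted p = 0.0339; 2, 13 and 3 counts in AL), and *Cxcl10*, an interferon-induced chemokine, lower at 4.62, 4.53 and 3.23 CPM in the AL samples and 1.002, 2.05 and 1.32 CPM in the CR samples (log2 fold change -1.50, adjusted p = 0.0373). *Cxcr1*, a receptor of neutrophils, was called lower at -1.45. *Cxcl12*, which retains blood-forming cells in the niche, was not called, at 3842, 6252 and 4130.0 CPM in the AL samples and 4283, 5924 and 6151 CPM in the CR samples (log2 fold change 0.20, adjusted p = 0.637), and *Cxcl14* was at -0.27. The call of *Cxcl10* was lost whichever AL or CR pool of this genotype was left out. That of *Cxcr1* was lost for each of these pools but CR replicate 1, and also without some pools of the control genotype. That of *Cxcl13* was lost without AL replicate 1, AL replicate 3, CR replicate 2 or CR replicate 3.

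Lists of housekeeping genes gave no call for replication or ribosomal proteins. Of 25 genes of DNA replication and mitosis 24 had negative values, with a median of -0.27, and of 38 ribosomal protein genes 36 did, with a median of -0.24. *Mki67*, a proliferation marker, was at 2520.2, 1501 and 2224 CPM in the AL samples and 1608, 1401 and 1025 CPM in the CR samples (log2 fold change -0.63, adjusted p = 0.307), and *Top2a*, a topoisomerase of dividing cells, at a log2 fold change of -0.48. The ribosomal protein genes with the most reads, *Rpsa* and *Rplp0*, were at -0.30 and -0.33. Nuclear genes of oxidative phosphorylation had a median of -0.02 with no call among 37, and the ATP synthase subunits *Atp5b* and *Atp5a1* were at -0.06 and -0.06. Genes of the mitochondrial genome had a median of 0.58, and 12 of 13 had positive values. None was called, but 3 passed the adjusted p below the fold limit. Summed over the list the AL samples were at 14057 to 16415 CPM and the CR samples at 18759 to 32334 CPM, without overlap. The value of *mt-Co1*, a cytochrome oxidase subunit, was 5278, 5877 and 5563 CPM under AL against 7812, 12888 and 8587 CPM under CR, highest in CR replicate 2. *mt-Cytb*, cytochrome b, had a log2 fold change of 0.58. Of 12 RNAs that lack a poly(A) tail or stay in the nucleus 2 histone genes were called lower, *Hist1h1b* (-1.82) and *Hist1h4d* (-1.21), while the nuclear RNAs *Malat1* and *Neat1* had log2 fold changes of 0.17 and 0.17. Neither histone call remained without AL replicate 1, AL replicate 3, CR replicate 2 or CR replicate 3.

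Skeletal muscle genes had the highest median of any list, 1.88, and it came from part of the CR group. *Acta1*, skeletal actin, was at 1.85, 1.79 and 2.49 CPM in the AL samples and 1.05, 12.4 and 41.1 CPM in the CR samples (log2 fold change 3.15, adjusted p = 0.0953), and *Myh4*, a fast myosin, at 0.707, 1.05 and 0.952 CPM in the AL samples and 0.316, 6.26 and 27.7 CPM in the CR samples (log2 fold change 3.65, adjusted p = 0.142). CR replicate 1 was at or below the AL samples in both, and replicates 2 and 3 were many times higher. Summed over the 10 tested genes the list was at 20.1 to 22.2 CPM in AL and at 18.7 to 164 CPM in CR. The single called member was *Myl1* (log2 fold change 3.28, SE 0.67, adjusted p = 0.0127), whose call was lost without AL replicate 1, AL replicate 3 or CR replicate 3, and the list's median was 1.09 without CR replicate 3 and 2.29 without CR replicate 1. The 6 pools were therefore unequal in muscle RNA, and the part of this in other results was not tested. *Mylpf*, a fast myosin light chain, had a log2 fold change of 0.17. Of 5 tested cartilage genes none was called, and *Comp* and *Col2a1*, which encode cartilage matrix, were at 1.59 and 1.29. In the nerve list of 11 the single call was *Egr2* (log2 fold change -1.05, adjusted p = 0.0297), lost without 5 of the 6 pools, while the myelin genes *Mbp* and *Pmp22* were at -0.17 and 0.60.

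The remaining genes with the lowest log2 fold changes were *Fam129c*, a gene of B cells, at 74.6, 59.3 and 72.9 CPM in the AL samples and 7.01, 5.10 and 8.92 CPM in the CR samples (log2 fold change -3.29, SE 0.42, adjusted p = 0.00365), and *Myl4*, an embryonic and atrial myosin light chain, at 22.6, 13.1 and 14.5 CPM in the AL samples and 1.85, 2.73 and 1.91 CPM in the CR samples (log2 fold change -2.95, SE 0.50, adjusted p = 0.0091). Every CR value lay far below the lowest AL value in both. The non-coding genes *1810059H22Rik*, *1700027J07Rik* and *Gm30948* were at -3.41, -3.39 and -2.88, and the membrane protein gene *Tmem108*, with 22% of its AL reads on the first strand, at -2.72. All 6 kept their calls in each alternative fit that included them.

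The response was then set beside that of the control genotype, in which 1639 genes were called (9.28%). Sample sizes differ, with 4 against 4 pools there and 3 against 3 here, so the counts cannot be compared as effect sizes. Of the 463 genes called higher here 360 were also called higher in the controls (77.8% of these and 27.8% of the control's higher calls), and 454 had the same sign. Their median log2 fold changes were 1.54 here and 1.54 there. Of the 161 called lower 108 were also called lower (67.1% of these and 31.5% of the control's), 154 had the same sign, and the medians were -1.66 here and -1.31 there. No gene was called in opposite directions. Since the members were chosen by their calls here, these shares are descriptions. The 8 control libraries were all stranded, so the control's contrast does not carry the change of library type.

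**Figure D5:**
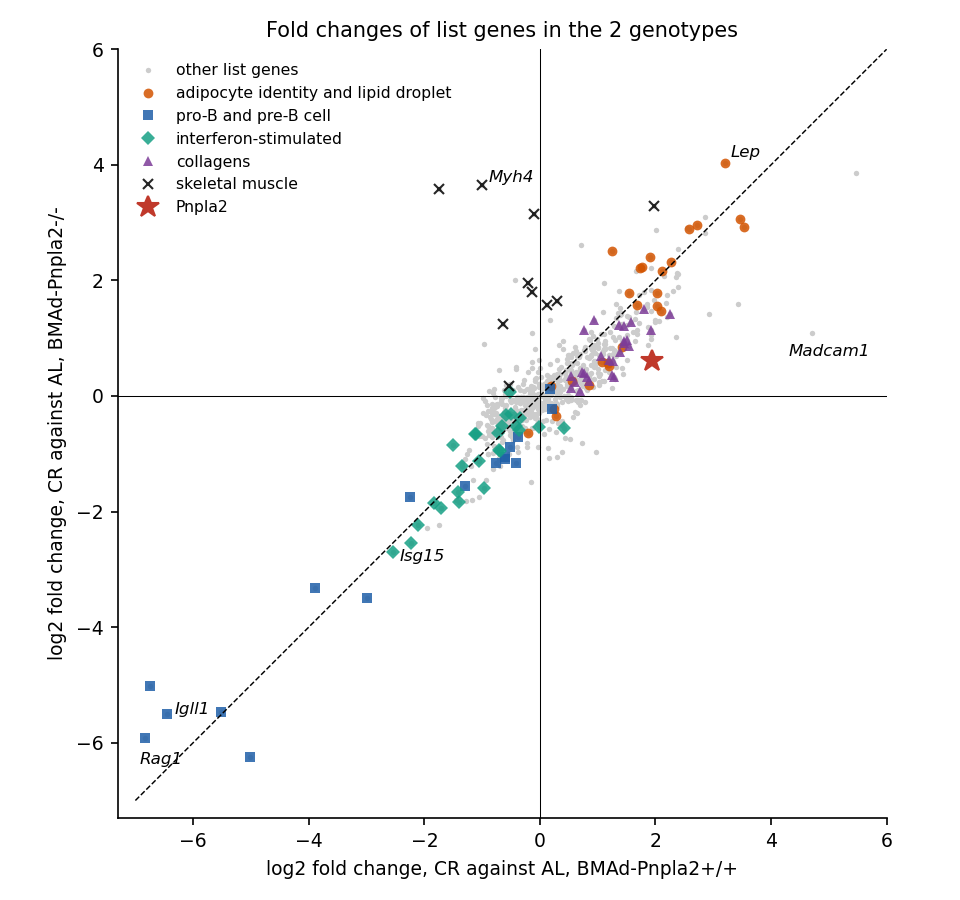
Log2 fold change of CR against AL for genes of the 36 lists in BMAd-Pnpla2+/+ (horizontal, 4 against 4 samples) and in BMAd-Pnpla2-/- (vertical, 3 against 3 samples). Each point is a gene, coloured by list, and the dashed line marks equal values. Pro-B, interferon and adipocyte genes scatter around the line, collagens (0.73 against 1.26 in median) mostly below it and skeletal muscle genes mostly above it. *Pnpla2* (star) lies at 1.94 and 0.60.

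Side by side, the pro-B list had medians of -1.56 here and -1.30 in controls, the interferon list -0.85 and -0.96, the adipocyte list 1.67 and 1.71 and the glucocorticoid list 1.38 and 1.30. For single genes, *Rag1* was at -5.91 and -6.83, *Isg15* at -2.71 and -2.54, *Lep* at 4.04 and 3.20 and *Fkbp5* at 1.37 and 1.54. Skeletal lists were lower in median here, at 0.73 against 1.26 for collagens with 0 against 14 calls. Matrix assembly was at 0.64 against 1.02 with 5 against 19 calls, and osteoclasts at 0.47 against 0.99 with 0 against 7. This was not particular to skeletal lists. The endothelial list was at 0.43 against 0.83 with 0 against 7 calls, the clock list at 0.56 against 0.95 and the insulin-like growth factor list at 0.58 against 0.94. The adipocyte list, close in median, had 14 against 19 calls. Skeletal muscle genes lay the other way, at 1.88 against -0.17. Lipid synthesis was at 0.58 against 1.09, and *Fasn* at 1.02 against 2.36 (difference -1.34, SE 0.65, unadjusted p = 0.0595). These values alone do not show a difference between genotypes.

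The difference itself was tested in the same model. It carries the change of library type in the -/- genotype, so that change and a difference between genotypes cannot be told apart in it. No gene was called (0%), and none had an adjusted p under 0.05; the smallest was 0.341 in edgeR's quasi-likelihood test, while 1836 genes had an unadjusted p under 0.05 and DESeq2 called 14. The smallest p was that of *Ppib*, a chaperone of collagen folding, which was at 27.8, 26.4 and 25.5 CPM in the AL samples and 49.99, 46.9 and 47.5 CPM in the CR samples here (log2 fold change 0.86, SE 0.12, adjusted p = 0.00481) and had a log2 fold change of -0.10 in the controls. Its difference was 0.95 (SE 0.16, unadjusted p = 4.49e-05), but 20.8% of its strand-assigned AL reads lay on the first strand and its direction here turned with the counts used. *Bri3*, a membrane protein gene, was at 58.1, 80.3 and 64.99 CPM in the AL samples and 34.2, 47.1 and 41.5 CPM in the CR samples here (log2 fold change -0.73, SE 0.17, adjusted p = 0.0185) and at 0.47 in the controls (difference -1.20, unadjusted p = 9.57e-05). *Atad1*, a mitochondrial ATPase gene, *Hcfc1r1*, *Pafah1b2* and *Rlim*, a ubiquitin ligase gene, came next, with differences of 0.64, -0.67, 0.65 and 0.63. *Madcam1*, an adhesion molecule of vessels picked out after its values were seen, was at 0.979, 2.11 and 0.952 CPM in the AL samples and 1.16, 4.42 and 3.04 CPM in the CR samples here (log2 fold change 1.09, adjusted p = 0.21) and at 4.71 in the controls (difference -3.62, SE 0.78, unadjusted p = 0.000414, adjusted p = 0.341).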

How the data were processed

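Marrow RNA from 14 pooled samples had been sequenced by the authors as paired reads. They describe the preparation as strand-specific, but the counts of the 3 BMAd-Pnpla2-/- CR libraries were not. Reads had been checked with FastQC, aligned with STAR to the mouse genome build mm10 and counted per gene. The deposited counts were whole numbers per gene with no normalization, given per sample in unstranded, first-strand and second-strand columns. The unstranded column was used. A deposited matrix of counts held the second-strand column of 11 samples and the unstranded column of the 3 BMAd-Pnpla2-/- CR samples, and served only for gene symbols and as an alternative. Of 55401 gene identifiers, 23441 were named by that matrix and 31728 by the reference table. The authors' own comparisons had been made with DESeq2 and were not used.

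Genes were kept by filterByExpr over 4 groups (17671 genes), scaled by TMM, and fitted with edgeR 4.0.16 (glmQLFit, robust, and glmQLFTest) in 1 model of 14 samples. Contrasts were CR minus AL within BMAd-Pnpla2-/-, the same within BMAd-Pnpla2+/+, and their difference. The SE is the log2 fold change divided by the square root of F. CPM values are TMM-scaled and not divided by gene length, so levels of different genes are not compared. On data simulated for this comparison with 17353 genes, 185 of 200 genes changed by 2 on the log2 scale were found, with 3 false calls. The changed genes were drawn only from those with a mean above 1 CPM. The simulated counts held no difference of library type or GC trend, so they give no error rate for the real data.

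The genes named were the 12 highest and the 12 lowest of the called genes that averaged 50 or more counts and did not overlap between groups, the 3 called members with the largest change in each direction and the 2 uncalled members with the most reads in each list, *Pnpla2* and the 6 smallest p of the difference. Other list members were picked for their role after their values were seen, as was *Madcam1*. The 36 lists (744 genes) and the comparison itself were chosen with earlier results of these data known. Alternatives were DESeq2 size factors, total counts, no low-count filter, a filter at a mean of 50 counts, the 6 samples alone, DESeq2's Wald test, no robust step, a replicate block, the deposited matrix, genes with under 10% first-strand reads, GC and length offsets, and each sample left out. Promoter sequences and their positions came from RefSeq (GRCm38.p6) and gene positions from GENCODE vM21. Some list members enter the counts and medians but are not reported here by name.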

Additional observations from a re-analysis of the deposited data

Results flagged for a closer look

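One signal lay in columns that the comparisons did not use, the strand-specific counts. In the BMAd-Pnpla2-/- CR samples 50.2% ± 0.223 of strand-assigned gene reads lay on the first strand (SD, n = 3). The value was 4.51% ± 0.0982 in the AL samples of that genotype (SD, n = 3). In the control genotype it was 4.42% ± 0.122 under AL and 4.46% ± 0.125 under CR (SD, n = 4 each). Within the -/- genotype this property and the diet cannot be told apart.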

How the results depend on the processing

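Against 624 calls in BMAd-Pnpla2-/-, the number was 411 under a filter at a mean of 50 counts, 1655 from the deposited matrix and 2052 without a limit on the fold change. For higher calls (463) the counts were 268 with no low-count filter, 1008 from the matrix and 1067 without the fold limit. For lower calls (161) they were 85 under a filter at a mean of 50 counts, 647 from the matrix and 985 without the fold limit. The 1639 calls in BMAd-Pnpla2+/+ became 933 under a filter at a mean of 50 counts. The difference between genotypes, with no call, gave 14 by DESeq2's Wald test and 484 from the matrix. The matrix reversed *Mt2* (-3.57) and *Ppib* (-1.14), and it holds unstranded values for the 3 -/- CR samples and second-strand values for the other 11. With the GC offset 458 genes were called, and only 405 of the 624 main calls were among them. Among the called genes that the text names, the GC offset removed the calls of *Adamts12*, *Cd8a*, *Csf3r*, *Cxcl13*, *Cxcr1*, *Egr2*, *Epx*, *Igfbp5*, *Kitl*, *Me1*, *Nr1d2*, *Plod2* and *Treml1*. With genes under 10% first-strand reads 530 were called, 509 of the main calls among them. With the 6 samples alone 666 were called, 511 of the main calls among them. These totals lay within 1.5 times the main number, but the genes called were not all the same. The cause of these shifts was not tested.

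With each sample left out in turn, the calls ranged from 122 to 766, the higher calls from 71 to 578, the lower calls from 51 to 188 and the control genotype's calls from 1062 to 2274, and no gene was called for the difference. Higher calls were 79, 88, 220 and 71 without -/- AL replicate 1, AL replicate 3, CR replicate 2 and CR replicate 3, and lower calls 88, 96, 85 and 51. The control's calls were 1065 without +/+ CR replicate 2 and 1062 without +/+ CR replicate 3. Of 95 called genes that the text names, 39 kept their call in every alternative that included them. For genes near 1 CPM the depth limits how far a fold change can be resolved.

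With the replicate number as a block, 364 genes were called in BMAd-Pnpla2-/-, 278 higher and 86 lower. Samples with the same number had correlations of deviations of 0.181, 0.141 and -0.0981, so the numbers were not taken to pair them, and not every sample correlated best with its own number.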
